A study of Mus musculus with 6 samples.

Results

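The comparison set all cells of the library labelled combod18t against all cells of the library labelled Combined, both made of CD45+ cells sorted from mouse mammary tumours. A barcode was a member if it showed 200 genes or more and if mitochondrial genes took no more than 15% of its counts. This gave 4018 cells in combod18t and 4476 in Combined, together 8494 of the 26843 such cells in the 5 libraries with counts.

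The series title names inhibition of MERTK with cyclophosphamide in triple negative breast cancer. Tumours were digested, and live (DAPI-negative) CD45+ cells were sorted and profiled by droplet single-cell RNA sequencing with unique molecular identifiers (UMIs, which count captured transcripts). Combined is read as the sample that the protocol's list calls Combination, and combod18t is read here as the same combination at day 18. The libraries CTX and ctxd18t, read as cyclophosphamide at the same pair of times, are set beside them. The protocol text, the same on every sample, gives day 7 with a treatment 3 h before harvest. It does not say whether this holds for the libraries labelled d18, and Combined carries no day in its own labels. The labels give neither the number of animals nor whether they were pooled, and they do not spell out VC, MRX or CTX. The library VC was not analysed here.

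MERTK is a receptor tyrosine kinase by which macrophages bind and engulf dying cells, an uptake that usually dampens inflammatory signalling. Cyclophosphamide is an alkylating drug that kills dividing cells, lymphocytes among them, and is known to be followed by regrowth of the lymphoid compartment. Naive T cells keep a quiescent state under factors such as LEF1, TCF7, BACH2 and SATB1 and recirculate through lymph nodes, whereas effector T and NK cells carry granzymes and interferon gamma, the cytokine that drives chemokines and antigen presentation genes in macrophages.

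Each side of the comparison is 1 library, so there was no replicate check and no test. All intervals are 95% intervals that cover counting error only. The d18 label, the barcode set and a place in the protocol's list of samples, which names neither library labelled d18, changed together between Combined and combod18t and cannot be told apart. The multiplexing barcodes did not follow the treatment labels: Combined and ctxd18t carried 1 barcode set (GT) and CTX and combod18t another (CA), in 100% of barcodes. CTX and combod18t shared 34 cell barcodes, Combined and ctxd18t shared 21, and every other pair, including combod18t and Combined, shared 0. The labels were used as given, and no value here checks that combod18t is the combination and not the cyclophosphamide library; if it were not, treatment too would differ between the sides of each comparison. After likely doublets were left out, 3858 cells of combod18t and 4273 of Combined were kept, at a median of 7242 and 8223 UMIs.

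T-like cells made up most of combod18t. They were 936 of the kept cells in Combined (21.9%) and 2525 in combod18t (65.4%), a difference of 43.5 percentage points (interval 41.6 to 45.5). Monocyte-macrophage-like cells stood at 1166 cells (27.3%) in Combined and 234 (6.07%) in combod18t, lower by 21.2 points. NK-like cells stood at 945 (22.1%) and 109 (2.83%), lower by 19.3 points. B-like cells went from 638 (14.9%) to 258 (6.69%), while neutrophil-like cells went from 78 (1.83%) to 294 (7.62%). Plasmacytoid dendritic-like cells went from 167 (3.91%) to 63 (1.63%), lower by 2.28 points (interval -2.99 to -1.57). These 6 classes differed by more than counting error. Conventional dendritic-like cells did not: 87 cells (2.04%) against 66 (1.71%), with a difference between -0.92 and 0.27 points.

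**Figure D1:**
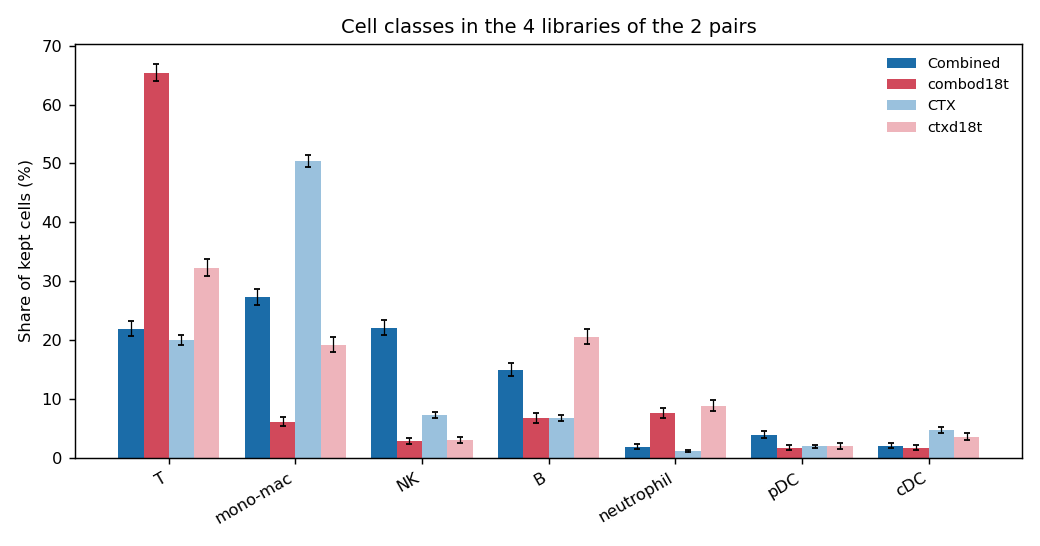
Share of kept cells (%, vertical axis) in each cell class for Combined, combod18t, CTX and ctxd18t; bars are 1 library each and error bars are 95% Clopper-Pearson intervals, which cover counting error only. The T-like bar of combod18t, at 65.4%, is the highest in the plot, and its NK-like bar is at 2.83%.

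Shares of 1 library add up to a whole, so the other shares together must be lower where the T-like share is higher. Among cells outside the T-like class, monocyte-macrophage-like cells were still lower in combod18t by 17.4 points and NK-like cells by 20.1 points. B-like cells then differed by 0.24 points (interval -2.21 to 2.80), and conventional dendritic-like cells were higher by 2.34 points (1.14 to 3.73). In the CTX libraries, T-like cells stood at 19.9% in CTX and 32.3% in ctxd18t, and NK-like cells at 7.23% and 2.94%. B-like cells were at 6.78% in CTX and 20.5% in ctxd18t, the opposite direction to the Combined pair. Whether the pairs differ was not tested.

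Within the monocyte-macrophage-like class, cells were spread differently over its 3 clusters. Cluster 0, led by Lyz2, Cd74, Plac8 and Ifitm3, held 877 of these cells in Combined (75.2%) and 32 in combod18t (13.7%). Cluster 1, led by Apoe and the complement gene C1qa, held 235 (20.2%) and 124 (52.99%). Cluster 8, led by Lyz2, Cd14, Thbs1 and Cxcl2, held 54 (4.63%) and 78 (33.3%). Most cells of the class thus sat in cluster 0 in Combined and in cluster 1 in combod18t, and gene values of the class below carry that shift. Among NK-like cells, the cycling cluster 16 held 180 in Combined and 7 in combod18t (6.42%).

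T-like cells were clustered again and split into subsets by their markers. Conventional CD4 T cells were 326 of the T-like cells in Combined (34.8%) and 1431 in combod18t (56.7%), higher by 21.8 points (18.2 to 25.4). CD8 T cells were 335 (35.8%) and 606 (24.0%), lower by 11.8 points (interval -15.3 to -8.33). T cluster 7, described below, scored highest as CD8 T but was left unnamed, so this share does not count it. That cluster held 3 cells of Combined and 229 of combod18t. Counting it would make the CD8 difference smaller, and no share with it was computed. Regulatory T cells, which restrain other T cells and express Foxp3, numbered 244 in Combined and 245 in combod18t, or 241 and 227 without T cluster 16, described with the class below. Their share went from 26.1% to 9.70%, and without that cluster the difference was -16.8 points.

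The CD4 difference lay in 1 cluster. T cluster 0, led by Satb1, Bach2, Lef1, Foxp1, Arhgap15 and Il7r, held 15 T-like cells of Combined (1.60%) and 1144 of combod18t (45.3%). It held 13 cells in MRX, 19 in CTX and 72 in ctxd18t, and a cluster that comes mostly from 1 library may be that library and not a cell type. Without it, CD4 T cells were lower in combod18t by 12.99 points and CD8 T cells higher by 7.51 points, so both directions turned. Without it the regulatory T share was lower by 8.75 points. T cluster 3, the resting CD4 cluster shared by the libraries, held 99 cells of Combined and 115 of combod18t.

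**Figure D2:**
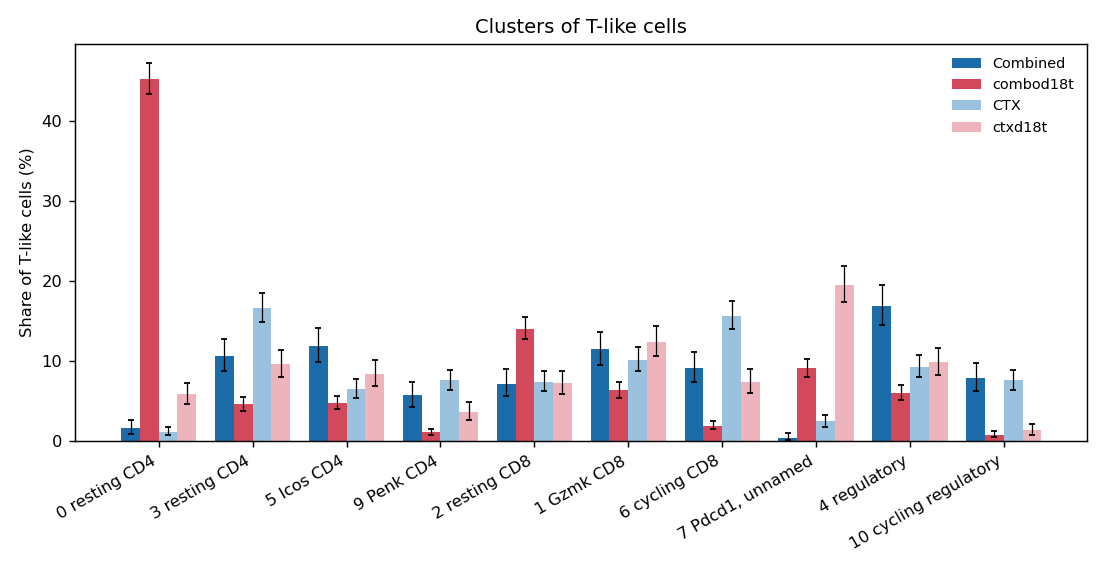
Share of T-like cells (%, vertical axis) in 10 T clusters for Combined, combod18t, CTX and ctxd18t, 1 library per bar. T cluster 0 holds 45.3% of the T-like cells of combod18t and 1.60% of those of Combined.

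Within combod18t, clusters 0 and 3 can be compared in 1 library. The naive-cell transcription factor Lef1 stood at 2359 CPM (counts scaled to a library or cluster total of 1000000) in cluster 0 and 1980 in cluster 3, and Tcf7, its relative, at 505 and 537. Il7r, the interleukin-7 receptor, was at 1941 and 1934 CPM. The survival gene Bcl2 was at 1801 CPM in cluster 0 and 771 in cluster 3. The early activation gene Cd69 was at 112 in cluster 0 and 251 in cluster 3. These levels describe clusters built on the same cells, so they carry no test.

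Other T clusters also differed in share. Resting CD8 cells of T cluster 2 were 67 in Combined (7.16%) and 354 in combod18t (14.0%). Cycling cells were fewer: the CD8 cluster 6 had 85 cells (9.08%) and 48 (1.90%), and the regulatory cluster 10 had 73 (7.80%) and 19 (0.75%). Regulatory T cluster 13, led by Ctla4, Lrig1 and Ccr7 among others, had 10 cells and 56.

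Gene levels were then compared as CPM of the summed counts of each class, and the log2 ratio of CPM + 1 is given as combod18t over Combined. A gene is said to have risen or fallen where this ratio was at least 2-fold. A gene was measured with at least 100 counts over both libraries and at least 50 CPM in 1. Over all kept cells, 12.1% of 4447 measured genes rose and 8.1% fell. Under median-of-ratios scaling, which moves all ratios of this sum by -0.26, the share of called genes that were higher went from 60.0% to 29.6%. The same scaling moved monocyte-macrophage ratios by -0.37, NK by -0.31, CD4 by 0.15, B by -0.15 and regulatory T by -0.12.

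In T-like cells, 424 of 4277 measured genes rose (9.91%) and 470 fell (11%). A list of naive and quiescent T cell genes stood above that background: 10 of its 16 measured members rose, 0 fell, and the median log2 ratio was 1.46 against 0.13 over all measured genes. Bach2, a repressor of effector genes, went from 437 to 1754 CPM (log2 2.0, interval 1.95 to 2.06). Lef1 went from 343 to 1322 CPM (1.94, 1.89 to 2.01). In the CTX libraries the same gene was at 401 and 545. Satb1, a chromatin organiser, went from 708 to 2559 and Il7r from 457 to 1396 CPM. These 4 genes also lead T cluster 0, so their rise is not separate from its size.

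Other genes of the list do not lead T cluster 0. S1pr1, the receptor by which T cells leave tissue and lymph nodes, went from 122 to 321 CPM (1.39). Ccr7, a lymph node homing receptor, went from 409 to 570 (0.48), short of 2-fold, and was lower in combod18t within each resting cluster, as given below. Tcf7 (0.84) and Klf2 (0.88) were also within 2-fold. Without T cluster 0 the list's median was 0.85, and with both libraries given the same mix of T clusters it was 0.36. To set depth aside, cells were thinned to 1000 UMIs, which left out 22 cells of combod18t and 9 of Combined. The share of T-like cells with a Lef1 count was then 60.0% in combod18t and 25.9% in Combined (83.0% and 55.4% unthinned), against 1.18% and 0.157% of B-like cells.

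Effector genes were lower. Of 14 measured cytotoxic effector genes, 0 rose and 7 fell, with a median of -1.17. Ifng, which encodes interferon gamma, went from 287 to 30.5 CPM (-3.19, interval -3.36 to -3.10), beside 166 in CTX and 89.9 in ctxd18t. Granzyme B (Gzmb) went from 528 to 101 and granzyme A (Gzma) from 188 to 28.8 CPM. The chemokine Ccl4 went from 122 to 28.8 (-2.05, or -1.27 without the cell of Combined with most counts), but from 206 to 286 in the CTX pair. Ccl5, another chemokine, stood at 520 and 570 CPM in the Combined pair and at 895 and 2094 in the CTX pair. The effector list's median was -0.54 without T cluster 0 and -0.53 at the same mix of clusters.

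Thinned shares of T-like cells with a count ran the same way for the effector genes. For Gzmb they were 3.64% in combod18t and 17.6% in Combined (9.07% and 30.4% unthinned), where B-like cells had 0 of 255 and 1 of 635. For Ifng they were 1.32% and 4.85% (6.18% and 14.7% unthinned), where B-like cells had 0 of 255 and 0 of 635, which allows up to 1.18% and 0.472%. The share in combod18t is therefore close to the limit of what B-like cells allow. For Pdcd1, the inhibitory receptor PD-1, they were 10.0% and 12.9%, where B-like cells had 1 of 255 and 0 of 635.

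Cell cycle genes fell in T-like cells, 15 of 18 measured, with a median of -1.83. Rrm2, a subunit of the enzyme that makes DNA precursors, went from 182 to 30.3 CPM, Cdk1, which drives mitotic entry, from 68.7 to 11.7, and the proliferation marker Mki67, a leading gene of the cycling clusters, from 396 to 158. At the same mix of clusters the median was -0.34, and Mki67 was at 0.67 and Top2a at 0.22, higher in combod18t. Glycolytic genes were lower too, with 6 of 9 measured members of the hypoxia and glycolysis list below 2-fold. Tpi1 went from 228 to 40.2 and Gapdh from 1262 to 342 CPM. Of 8 insulin and growth signalling genes 7 rose, among them Igf1r (34.2 to 78.6 CPM) and the quiescence-linked factor Foxo3 (31.4 to 84.7). Against genes of like span the list's median went from 1.15 to 0.47, and within T cluster 3 Igf1r had 37 counts in combod18t and 51 in Combined, under the 100 asked of a measured gene, at 70.8 and 125 CPM (-0.81, interval -1.47 to -0.18).

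Checkpoint and chronic activation genes did not move as a list in T-like cells: 0 of 9 rose, 0 fell and the median was -0.14. Pdcd1 stood at 209 and 179 CPM, and Tox, a factor of chronically stimulated cells, at 611 and 1058. The largest rises that the naming rule gave were Rapgef4 (10.2 to 76.3 CPM), St8sia6, a sialyltransferase (26.0 to 181), Auts2, Slc49a4, Patj and Pde5a. St8sia6 stood at 36.5 in CTX and 41.6 in ctxd18t. The largest falls were Ifng, lymphotoxin alpha (Lta, 55.9 to 6.80 CPM), Tk1, Cxcl10, Rrm2 and Tpi1. Monocyte-macrophage markers summed to 535 CPM in the T-like cells of Combined and 256 in those of combod18t, with 0 of 12 higher. T cluster 11, led by C1qa, Apoe and other monocyte-macrophage genes and left unnamed, held 28 T-like cells of Combined and 14 of combod18t. Without it these sums were 483 and 222 CPM, 432 genes rose and 476 fell, and the T-like share differed by 43.8 points. The part of the remaining marker counts was not tested.

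**Figure D3:**
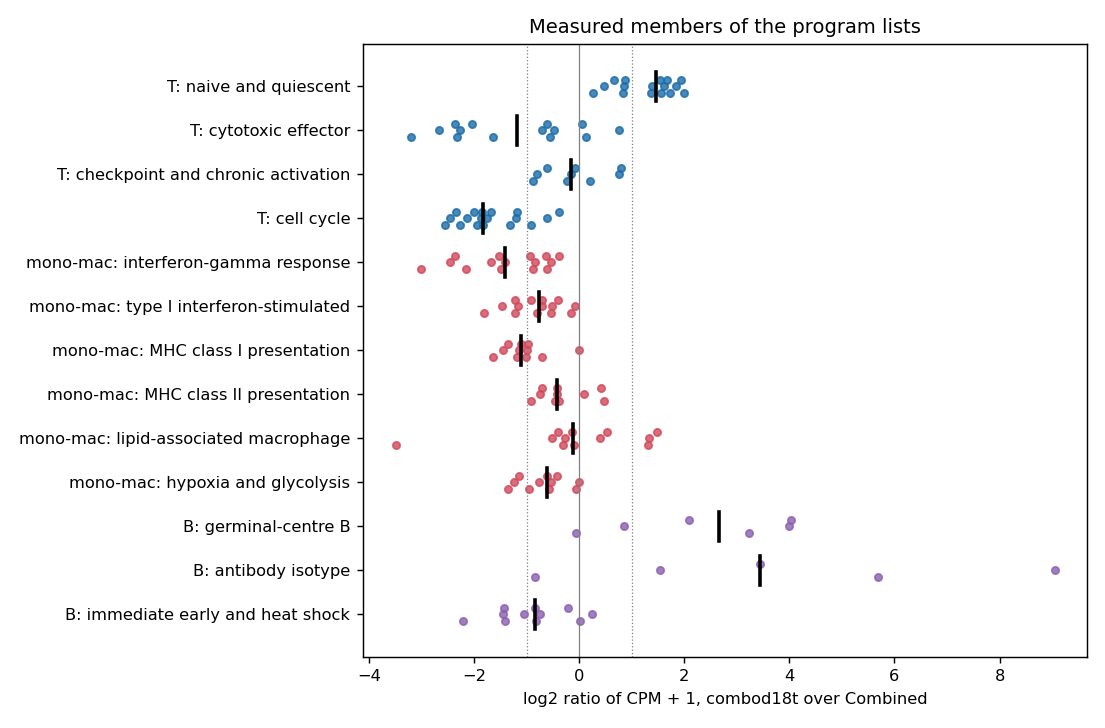
Log2 ratio of CPM + 1, combod18t over Combined (horizontal axis), for the measured members of gene lists in their class; each dot is 1 gene, the black bar is the list's median and the dotted lines mark 2-fold. Naive and quiescent genes in T-like cells lie to the right with a median of 1.46, and the interferon-gamma response genes of monocyte-macrophage-like cells lie to the left with a median of -1.42.

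In conventional CD4 T cells, 533 of 4201 measured genes rose (12.7%) and 713 fell (17%), and 42.8% of called genes were higher, or 55.8% under median-of-ratios scaling. Naive and quiescent genes rose in 12 of 16 cases, with Bach2 going from 585 to 2502 CPM (2.10). T cluster 0, with Bach2 among its leading genes, held 4.60% of the class in Combined and 79.9% in combod18t. The rise of Bach2 is thus not separate from the size of that cluster. Cytotoxic effector genes fell in 10 of 11 cases with a median of -3.06. Ifng went from 842 to 14.7 CPM (-5.75, interval -6.10 to -5.60), beside 434 in CTX and 92.7 in ctxd18t. Ccl4 went from 231 to 5.03 CPM, and in Combined 71.4% of its counts came from 1 cell. Without that cell its ratio was -3.48. Ccl3 went from 205 to 7.80 CPM (-4.55), with 40.8% of its Combined counts in 1 cell, and 68.4% of those of combod18t in another, and was at -3.81 without the former.

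Markers of other cells differed in both directions in CD4 T cells. Monocyte-macrophage markers summed to 273 CPM in Combined and 61.6 in combod18t (1 of 12 higher), NK markers to 92.3 and 28.4 (0 of 8, Klra8 and Klra4 at 0 in both) and type 2 innate lymphoid markers to 1104 and 322 (1 of 7). Endothelial markers summed to 153 and 289, migratory dendritic to 607 and 695, neutrophil to 11.8 and 32.4 and B markers to 60.9 and 70.1. Their part in these values was not tested.

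The checkpoint list fell in 6 of 9 CD4 cases, with a median of -2.22. Pdcd1 went from 249 to 39.4 CPM, the costimulatory receptor Tnfrsf9 from 446 to 86.5, and the inhibitory receptor Ctla4 from 480 to 146 (434 and 568 in the CTX pair). All 4 measured genes of the type 17 list fell, Il17f from 59.6 to 8.52 CPM and Tmem176b from 90.9 to 11.8 among them. The follicular helper factor Bcl6 went from 78.2 to 38.6 CPM. CD4 values depended on the mix of clusters. At the same mix, where 15 cells of Combined stand for T cluster 0, the checkpoint median was 0.15 and the effector median -0.75, and without T cluster 0 they were -0.12 and -0.93.

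Within the shared resting CD4 cluster 3, the libraries were compared directly. Il7r stood at 889 CPM in Combined and 1934 in combod18t (1.12). Lef1 differed by 0.09. Its interval was -0.045 to 0.23, and that of Il7r was 0.95 to 1.30. Ccr7 was lower in combod18t, at 811 CPM against 1070 (-0.40, -0.60 to -0.20), as was Igfbp4 (-0.36, -0.65 to -0.068). In the resting CD8 cluster 2, Ccr7 differed by -0.24 (-0.41 to -0.069) and Klf2 by -0.43 (-0.60 to -0.26), while Il7r differed by 0.81. These genes were chosen after their values were seen.

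In CD8 T cells, 345 of 4203 measured genes rose (8.21%) and 331 fell (7.88%). The class sat in different clusters in each library: the resting T cluster 2 held 20.0% of it in Combined and 58.4% in combod18t, and the cycling cluster 6 held 25.4% and 7.92%. Naive and quiescent genes rose in 9 of 16 cases: Il7r went from 353 to 1157 CPM (1.71, interval 1.61 to 1.81) and Bach2 from 529 to 1534. Of 15 effector genes 7 fell, with Gzma from 419 to 72.5 CPM (-2.51, -2.70 to -2.36) and Gzmb, a leading gene of CD8 cluster 1, from 967 to 275. Ccl5 stood at 1149 and 1120 CPM and Gzmk at 315 and 243, within 2-fold. NK markers, Gzma among them, summed to 699 CPM in the class in Combined and 315 in combod18t (3 of 8 higher). Migratory dendritic markers summed to 306 and 550 (2 of 8 higher). The part of these markers in the values of the class was not tested. With both libraries given the same mix of clusters, the naive median went from 1.16 to 0.45 and the effector median from -0.95 to -0.24, with Il7r at 0.98 and Gzma at -1.62. Pdcd1, the only checkpoint gene of 8 past 2-fold, went from 256 to 114 CPM. The regulator Tox stood at 272 and 508. The CD8 class leaves out T cluster 7, where Cd8a stood at 445 CPM in combod18t against 226 in the class. That cluster held 1976 Pdcd1 counts in combod18t and 24 in Combined, against 615 and 645 in the class. The fall of Pdcd1 is therefore that of the class without this cluster, and values with it were not computed.

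Interferon-linked genes also fell in CD8 T cells. Of 7 measured type I interferon-stimulated genes 5 fell, and the chemokine Cxcl10 went from 215 to 9.80 CPM (-4.32). Cxcl10 stood at 193 CPM in the other cells of Combined and 38.9 in those of combod18t, and monocyte-macrophage markers in CD8 T cells summed to 597 and 279 CPM, with 1 of 12 higher. Their part in these values was not tested. The list's median was -1.20, and -0.93 at the same mix. Xcl1, a chemokine that attracts cross-presenting dendritic cells, went from 256 to 42.0 CPM. T cluster 7, outside the class, held 1334 Xcl1 counts in combod18t and 15 in Combined, against 227 and 645 in the class. This fall is therefore that of the class without that cluster. At the top, Ptprk went from 5.96 to 64.7 CPM with 75.7% of its combod18t counts in 1 cell. Its ratio was 3.24, and 1.27 without that cell. Auts2 (13.5 to 103), Rapgef4, Card6, Jmy and Ifngr2, a chain of the interferon gamma receptor (32.2 to 149), followed. At the same mix of clusters 112 genes rose and 52 fell.

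In regulatory T cells, 483 of 4361 measured genes rose (11.1%) and 332 fell (7.61%), and 59.3% of called genes were higher, or 44.6% under median-of-ratios scaling. The class sat in different clusters: the cycling T cluster 10 held 29.9% of it in Combined and 7.76% in combod18t, and cluster 13, led by Ctla4 and Ccr7 among others, 4.10% and 22.9%. T cluster 16 was put in the class by its marker score, but class II genes, Lyz2 and Lyn lead it and Ikzf2 alone is a regulatory T marker among its 10 leading genes, so the cluster itself stays unnamed and values of the class that depend on it are given without it too. It held 3 cells of Combined and 18 of combod18t, with 2.94% and 14.8% of the UMIs of the class. Without it 524 genes rose and 334 fell.

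Checkpoint genes moved up in the class, with 5 of 12 past 2-fold, 0 below and a median of 0.80. Havcr2, which encodes TIM-3, went from 24.2 to 85.1 CPM (1.77, interval 1.38 to 2.27). Pdcd1 went from 108 to 248 CPM (1.19), beside 136 and 308 in the CTX pair. Nr4a2 (113 to 283), Cxcr6 (26.0 to 66.1) and Rgs16 (48.4 to 115) were the others. The median was 0.69 with the same mix of clusters and 0.77 without T cluster 16, where Cxcr6 was at 0.81 and the other 4 stayed past 2-fold.

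Naive and quiescent genes rose in 8 of 13 cases in regulatory T cells as well, Bach2 from 167 to 811 CPM and Tcf7 from 32.5 to 123. Their median was 1.37, and 1.15 at the same mix of clusters. Bcl2 went from 55.3 to 428 CPM (2.93, interval 2.68 to 3.23), beside 46.1 and 204 in the CTX pair. The defining genes were within 2-fold: Foxp3 stood at 234 and 201 CPM, and Il2ra, the high-affinity interleukin-2 receptor chain, at 903 and 535. Of 19 cell cycle genes 16 fell, and of 10 hypoxia and glycolysis genes 8 fell, with Ldha going from 1022 to 324 CPM. The cell cycle median went from -1.36 to -0.14 at the same mix, where Ccnb2, Stmn1, Top2a and Ube2c were higher in combod18t, and the hypoxia and glycolysis median from -1.49 to -1.31. Class II antigen presentation genes rose in 5 of 7 cases with a median of 1.31 (H2-Aa from 220 to 695 CPM), and this rested on T cluster 16. Without it 0 of the 7 rose, 2 fell and the median was -0.90, with H2-Aa at 84.8 and 41.9 CPM, so the direction turned. Monocyte-macrophage markers were higher in the whole class, 9 of 12 of them, summing to 568 CPM in Combined and 732 in combod18t, and their part was not tested.

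A T cluster with a leading receptor segment stood out in the libraries labelled d18. T cluster 7 scored highest as CD8 T (0.85, against 0.35 for regulatory T). It was left unnamed because a regulatory T marker, Ikzf2, and no CD8 marker was among its 10 leading genes. Its leading genes include Itgav, Ikzf2, Tnfrsf9, Nkg7, Pdcd1 and Cxcr6. It held 3 T-like cells of Combined (0.32%) and 229 of combod18t (9.07%), beside 41 of CTX (2.42%), 242 of ctxd18t (19.5%) and 14 of MRX. It was thus larger in both libraries labelled d18 than in the library of the same treatment without that label.

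In combod18t, cluster 7 carried Cd8a at 445 CPM and Cd4 at 154, and Foxp3 at 25.7. Pdcd1 stood at 736 CPM and Tox at 1643, where CD8 T cells of the same library had 114 and 508 and regulatory T cells 248 and 1815. Tcf7 was at 106 CPM against 295 in those CD8 T cells and 123 in the regulatory T cells. Pdcd1 is a leading gene of the cluster, so these levels describe it and carry no test. Gzmb was at 68.2 CPM (interval 58.7 to 78.8) in combod18t and at 519 in the cluster 7 cells of ctxd18t. Prf1, the pore-forming perforin, stood at 125 and 504 in the same order, and Ccl5 at 1582 and 3725. The chemokine gene Xcl1 was higher in combod18t, at 497 CPM (471 to 524) against 410 (386 to 435). Ifng was at 129 and 141.

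Antigen receptor segments were kept out of the clustering, so their use is a separate readout of cluster 7. A T cell's receptor beta chain uses 1 of many V segments (Trbv genes), and a cell was given the Trbv segment with most counts. Segments that are near-identical share reads, so single segments are uncertain, and Trbv1 and Trav3 were chosen after their values were seen. A Trbv count was found in 257 of 936 T-like cells of Combined (27.5%) and 1333 of 2525 of combod18t (52.8%).

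Trbv1 led in 18 of these 257 cells in Combined (7.00%, interval 4.2 to 10.8) and in 220 of 1333 in combod18t (16.5%, 14.5 to 18.6). It led in 181 of 791 in ctxd18t (22.9%) and 47 of 533 in CTX (8.82%). Within cluster 7 of combod18t it led in 94 of 159 cells (59.1%, 51.1 to 66.8). In cluster 7 of ctxd18t, it led in 97 of 179 cells (54.2%). In cluster 7 of CTX it led in 5 of 20 cells (25%, 8.66 to 49.1). The cluster in Combined had 1 cell with a Trbv count, which allows no comparison. Outside cluster 7, Trbv1 led in 126 of 1174 cells of combod18t (10.7%, 9.02 to 12.6) and 17 of 256 of Combined (6.64%, 3.92 to 10.4), and these intervals overlap. In the CTX pair it led outside cluster 7 in 84 of 612 cells of ctxd18t (13.7%, 11.1 to 16.7). In CTX it led there in 42 of 513 (8.19%, 5.96 to 10.9), and these intervals do not overlap.

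The alpha chain also had a leading family. Among cluster 7 cells with an alpha V segment (Trav), the Trav3 family led in 63 of 130 in combod18t (48.5%) and 68 of 140 in ctxd18t (48.6%), and in 0 of 11 in CTX. The members of the family differed: Trav3-3 led in 60 cells and Trav3-1 in 3 of combod18t, but in 36 and 31 of ctxd18t. Outside cluster 7 the family led in 117 of 726 T-like cells of combod18t (16.1%), but in CD8 T cells it led in 56 of 182 (30.8%), beside 23 of 72 in Combined (31.9%). Where both chains were seen in combod18t, it led in 38 of 57 Trbv1 cells (66.7%) and in 4 of 33 cells with another Trbv segment (12.1%). In ctxd18t, these were 37 of 58 (63.8%) and 8 of 46 (17.4%). The pair was seen in CD8 T cells too, where the family led in 6 of 9 Trbv1 cells of combod18t and 14 of 17 of ctxd18t. Over all T-like cells with both chains, the Trbv1 and Trav3 pair was found in 52 of 499 of combod18t (10.4%), 52 of 374 of ctxd18t (13.9%), 1 of 59 of Combined (1.69%), 2 of 196 of MRX (1.02%) and 0 of 169 of CTX, which allows up to 1.78%. Of the cluster 7 cells with this pair and an alpha joining (Traj) segment, Traj4 led in 3 of 15 and Traj18 in 3 of 15 in combod18t, and in 3 and 5 of 13 in ctxd18t. Full receptor sequences were not analysed here, and the number of clones behind these cells was not measured.

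**Figure D4:**
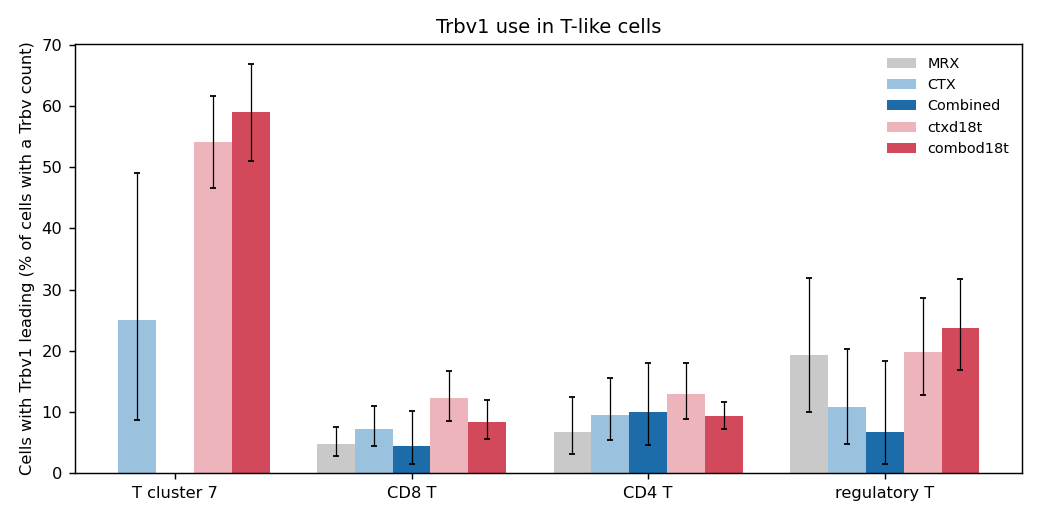
Cells in which Trbv1 was the leading segment, as a percentage of cells with a Trbv count (vertical axis), in T cluster 7 and the CD8, CD4 and regulatory T subsets of 5 libraries, with 95% Clopper-Pearson intervals for counting error; MRX and Combined are not drawn for cluster 7, where few cells had a count. Cluster 7 stands at 59.1% in combod18t and 54.2% in ctxd18t, above the subsets of the same libraries.

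The number of Trbv segments in equal use (the effective number) was 10.3 over T-like cells of Combined and 9.97 over those of combod18t. In cluster 7 alone it was 2.65 in combod18t and 3.11 in ctxd18t, beside 7.14 over the 20 cells of CTX. Among the named subsets of combod18t, Trbv1 led in 32 of 135 regulatory T cells (23.7%), 67 of 722 CD4 T cells (9.28%) and 26 of 312 CD8 T cells (8.33%). In Combined these were 3 of 45, 9 of 91 and 5 of 112. Among regulatory T cells of the other libraries, Trbv1 led in 11 of 57 of MRX (19.3%, interval 10.0 to 31.9). It led in 8 of 74 of CTX and 21 of 106 of ctxd18t.

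In monocyte-macrophage-like cells, 385 of 4090 measured genes rose (9.41%) and 138 fell (3.37%), and 73.6% of called genes were higher, or 23.2% under median-of-ratios scaling. Interferon-gamma response genes fell in 8 of 15 measured cases and rose in 0, with a median of -1.42 against 0.20 over all measured genes. At the same mix of clusters the median was -0.89. The CTX pair's median for the list was -0.66. Short promoter stretches of 3 of the 8 genes are shown first, because they carry the letters that interferon regulatory factors are known to bind.

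The stretches come from RefSeq promoters on GRCm38.p6, a build other than that of the files, in windows from 250 bases before to 50 after each start. A pair of GAAA blocks with any 2 bases between them (read as a pair of TTTC blocks on the other strand) was searched on both strands, and matches may overlap. Capitals mark the matches, and each line is given 5′ to 3′ on the strand of its gene.
Cxcl10, chr5:92349078-92349117, minus strand: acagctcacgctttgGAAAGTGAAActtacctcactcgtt
Gbp2, chr3:142620589-142620628, plus strand: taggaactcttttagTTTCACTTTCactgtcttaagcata
Socs1, chr16:10785589-10785634, minus strand: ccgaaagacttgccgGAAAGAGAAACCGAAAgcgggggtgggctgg

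Of the 15 measured list genes, 12 matched the promoter table. The paired GAAA form was found in 8 of the 12 (66.7%) against 1079 of the 27025 genes with a promoter there (3.99%). Of the 7 genes of the table that fell 4 carried it, and of the 5 within 2-fold also 4 (Gbp3, Gbp5, Gbp7 and Irgm1). The windows of Cxcl9, Cd274, Serpina3g and Irf1 held none, which says only that the letters are not in those windows. Gbp4 was not in the table. A match describes the sequence and is no measurement of binding.

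Serpina3g, a protease inhibitor, had the largest fall of the list, from 253 to 30.5 CPM (-3.01). The chemokine Cxcl10, which draws T cells through CXCR3, went from 272 to 48.7 CPM (-2.46). Cxcl9, of the same receptor, went from 1021 to 228 (-2.16, interval -2.27 to -2.06). Socs1, the feedback inhibitor of interferon signalling, went from 148 to 27.9. The GTPases Igtp (97.9 to 30.1), Gbp4 (208 to 71.3) and Gbp2 (263 to 97.7) fell too, as did Cd274, which encodes PD-L1 (470 to 166, beside 423 and 257 in the CTX pair). Irf1, a transcription factor that drives such genes, stood at 227 and 148 CPM, within 2-fold.

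Class I presentation genes fell in 7 of 11 cases with a median of -1.10. The immunoproteasome subunit Psmb8 went from 969 to 377 CPM (-1.36, interval -1.45 to -1.28), Psmb10 from 496 to 159, and the peptide transporter genes Tap1 from 185 to 83.2 and Tap2 from 171 to 62.2. The heavy chain H2-D1 went from 3805 to 1879. H2-K1 stood at 3052 and 1534 (-0.99) and B2m at 6256 and 3813, within 2-fold. Set against genes of like length, 2 of the 11 fell, with a median of -0.70. Class II genes did not move as a list, with 0 of 10 past 2-fold. Of 14 type I interferon-stimulated genes 5 fell, including Isg15 (909 to 259 CPM) and Irf7 (417 to 178).

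Genes for the uptake of dying cells were measured for 8 of the 15 on the list, and 3 of them rose. Pros1, which encodes protein S, a ligand of MERTK and its relatives, went from 16.3 to 54.0 CPM (1.67, interval 1.44 to 2.02). Abca1, a cholesterol exporter used after engulfment, went from 208 to 626 and the integrin gene Itgb5 from 63.0 to 167. Axl, a receptor of the MERTK family, stood at 66.7 and 72.5 CPM. Mertk was under the count filter in both libraries, so it has no ratio here.

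Lipid-handling genes went in different directions. Of 12 measured, Apoe (1742 to 4840 CPM), Cd63 (159 to 402) and Trem2, a lipid receptor (41.9 to 106), rose, and Lpl, lipoprotein lipase, fell from 141 to 11.6. Apoe leads cluster 1 of the class and Plac8, which went from 4469 to 1726 CPM, leads clusters 0 and 8. Their log2 ratios at the same mix of clusters were 0.73 for Apoe and -0.98 for Plac8, both within 2-fold. Of the monocyte genes, Fn1 (fibronectin) went from 86.4 to 434 CPM (2.31), F13a1 from 105 to 456, and Ly6a from 828 to 71.3 (-3.52). Fn1 stood at 93.9 and 522 in the CTX pair, and Ly6a at 948 and 171.

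Other genes of the class by the naming rule included Apbb2 (2.74 to 52.4 CPM), Zdhhc14 (28.8 to 227), Tanc2 and the prostaglandin D synthase gene Hpgds (11.5 to 72.5) among those that rose, and Ly6i (465 to 58.7) and Upp1 (173 to 23.2) among those that fell. Cx3cr1, the fractalkine receptor, went from 39.1 to 178. The alternative activation genes Chil3 (178 to 47.4) and Ccl24 (127 to 35.8) fell, although they stood at 50.8 and 60.0 and at 96.2 and 171 in the CTX pair. Markers of other cells differed in the class as well. Neutrophil markers summed to 132 CPM in Combined and 1287 in combod18t (8 of 8 higher, Mmp9 at 0 in Combined), T markers to 71.8 and 179 (10 of 10), and erythroid markers to 0.28 and 602. Plasmacytoid dendritic markers summed to 818 and 706 and NK markers to 83.5 and 74.1. Their part in the values of the class was not tested.

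In NK-like cells, 454 of 4286 measured genes rose (10.6%) and 177 fell (4.13%), and 71.9% of called genes were higher, or 22.6% under median-of-ratios scaling. Values of combod18t rest on 109 cells. Of 19 measured NK maturation and effector genes 6 fell and 2 rose. Gzmb went from 2065 to 794 CPM (-1.38, interval -1.48 to -1.28), with 39.8% of the combod18t counts in 1 cell, and Prf1 from 1120 to 486. Both are leading genes of cluster 4, which holds most NK-like cells of both libraries. Ccl4 went from 553 to 142 CPM (756 and 1050 in the CTX pair), and Ccl3 from 119 to 15.7 (149 and 207).

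Ifng in NK-like cells went from 142 to 25.3 CPM, with 44.8% of its combod18t counts in 1 cell. The integrin genes Itgam (38.4 to 96.1 CPM) and Itga1 (117 to 263) rose. Il7r went from 22.3 to 184 CPM (2.99, interval 2.76 to 3.34) and stood at 31.9 and 218 in the CTX pair; it was named after its value was seen. Markers of type 2 innate lymphoid cells summed to 302 CPM in Combined and 696 in combod18t, where 4 of 7 were higher, while Il1rl1, Il13 and Il5 were at 0 in combod18t. The NK markers of the class summed to 7475 CPM in Combined and 4585 in combod18t (2 of 8 higher), beside 8159 and 7222 in the CTX pair. The part of a different make-up of the class in the Gzmb, Prf1, Ifng and Il7r values was not tested. Cell cycle genes fell in 7 of 17 cases.

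In B-like cells, 175 of 4036 measured genes rose (4.34%) and 22 fell (0.545%), and 88.8% of called genes were higher, or 74.3% under median-of-ratios scaling. The germinal-centre list stood apart from that background, with 4 of 6 measured members past 2-fold upward and a median of 2.66. Rgs13, a regulator of G-protein signalling, went from 4.19 to 82.1 CPM (4.0, interval 3.52 to 5.19), beside 9.55 and 164 in the CTX pair. Of the others, Mybl1 went from 6.59 to 70.2 and Basp1 from 32.9 to 144. Bcl6, the germinal-centre master factor, stood at 60.2 and 58.0 CPM. Resting B cell genes did not move, with 0 of 10 past 2-fold.

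The germinal-centre genes moved with a cluster. B cluster 17, of higher depth than its libraries, held 13 of the B-like cells of Combined (2.04%) and 53 of combod18t (20.5%), beside 17 in CTX and 199 in ctxd18t. At the same mix of clusters the germinal-centre median was 0.63. Of 13 cell cycle genes 7 rose, with Mki67 going from 68.3 to 372 CPM, and at the same mix their median was -0.58, lower in combod18t, with 13 cells of Combined behind that value. Immediate early genes fell in 5 of 11 cases, including Fos (365 to 78.3 CPM) and Egr1 (313 to 118).

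Switched antibody genes were higher. A switched isotype led in 11 of 633 B-like cells of Combined (1.74%, interval 0.871 to 3.09) and 25 of 257 of combod18t (9.73%, 6.40 to 14.0). In the CTX pair it led in 2 of 572 (0.350%) and 106 of 776 (13.7%). In cluster 17 the switched share was 3 of 13 in Combined and 19 of 53 in combod18t (35.8%). Ighg2c counts went from 13 to 7388, or 3.89 to 2581 CPM, and 79.9% of those in combod18t lay in 5 cells. Of the Ighg2b counts of combod18t, 66.8% lay in 1 cell. Plasma cell markers summed to 419 CPM in the B-like cells of Combined and 4693 in those of combod18t (7 of 7 higher), and T markers to 11.1 and 279 (Cd4 and Cd8a at 0 in Combined). Their part in these values was not tested.

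Ratios followed the length of the gene on the genome in every class. In T-like cells, the median log2 ratio was -0.60 for the shortest tertile of measured genes, spanning up to 18.2 kb, and 0.63 for the longest, spanning over 56.6 kb. Of the 424 genes that rose 289 were in the longest tertile, and of the 470 that fell 377 were in the shortest. Spearman's rho between span and ratio, across genes and with no p because genes are not independent, was 0.64 in T-like, 0.63 in monocyte-macrophage-like, 0.69 in NK-like and 0.44 in B-like cells. In the CTX pair it was 0.68, 0.63, 0.64 and 0.38. That pair shares no library with this one, but it too sets a library labelled d18 against one without a day in its labels.

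**Figure D5:**
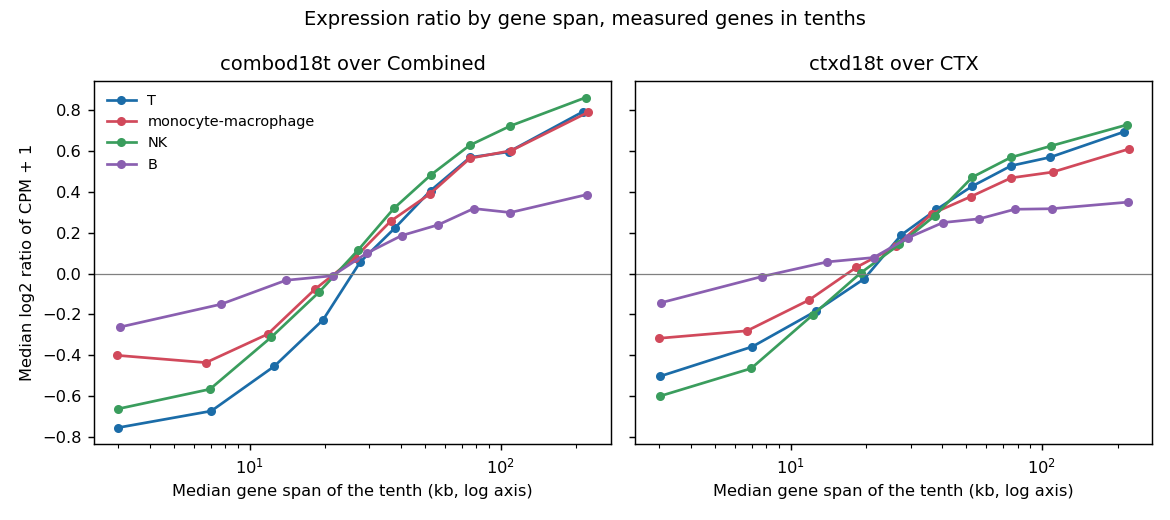
Median log2 ratio (vertical axis) of genes in 10 equal groups by gene span (median span in kb, log axis) for 4 cell classes, in combod18t over Combined and in ctxd18t over CTX. The lines rise with span in both pairs; in T-like cells of the first pair the shortest tertile has a median of -0.60 and the longest 0.63.

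Each gene was therefore also set against the median of measured genes of like span. In T-like cells, 226 genes were then higher by 2-fold and 222 lower, of which 123 and 142 were also called without this step. List medians were then 1.30 for the naive and quiescent, -0.95 for the cytotoxic and -1.34 for the cell cycle list of T-like cells. For the interferon-gamma response of monocyte-macrophage-like cells the median was -1.23. In both classes the step moves a ratio by at most 0.79, so it could not turn the signs of these medians. The make-up of the RNA differed as well: from Combined to combod18t the median ribosomal share of a cell's counts went from 15.98% to 14.9% in T-like, 14.8% to 9.26% in NK-like and 17.7% to 12.1% in B-like cells. The median share of the nuclear RNA Malat1 went from 0.908% to 1.20% in T-like and 0.592% to 0.972% in NK-like cells, and from 1.40% to 1.22% in B-like cells. Their part in the relation to span was not tested.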

How the data were processed

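Single-cell libraries of CD45+ cells were made with 10x on-chip multiplexing chemistry, and the labels' protocols give Cell Ranger 9.0.1 for the reads. The submitters' processing notes name Seurat 5.2.0 and GRCm39. The deposited matrices hold raw UMI counts per gene and cell over 33696 features, not normalized by the authors.

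Cells, classes and gene lists were analysed with scanpy 1.11.5. Members, lists and tests were chosen with earlier results of these data known. Scrublet marked under 0.5% of cells by its own threshold, so the cells with the highest 5% of scores in each library were left out (160 in combod18t and 203 in Combined). Counts were scaled to 10000 per cell, 2000 variable genes gave 30 principal components, and 15 neighbours were clustered with leidenalg 0.10.2 at resolution 1 over 5 libraries, without integration; the 25653 kept cells formed 24 clusters. Clusters were named from marker lists. Clusters 12 and 19, at 2.27 and 2.47 times the UMIs of their libraries with markers of 2 classes, were left unnamed by a threshold set after seeing the data (188 cells of Combined, 149 of combod18t).

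CPM are of counts summed per class of at least 100 cells in both libraries. CPM have exact Poisson, log2 ratios conditional binomial, shares Clopper-Pearson and their differences Newcombe intervals. A count of 0 allows 3 counts. Ratio intervals leave out the pseudocount of 1 CPM, which understates changes of low genes. Genes were named if among the 6 highest or lowest ratios of a class (no markers, no leading genes of its clusters, at least 0.5 times the CPM of other cells), or as list members past 2-fold or of high level. Gene span was read by Ensembl identifier from GENCODE vM21. Ratio steps were tested on simulated counts. Alternatives were filters, scaling, pseudocount, thinning, resolution, cluster mix and span. Some genes of the lists are not reported here by name, although the counts and medians of the lists include them.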

Additional observations from a re-analysis of the deposited data

Results flagged for a closer look

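Some results went one way in the combination libraries and the other way in the CTX libraries, and in each case the difference between the pairs was not tested, since every group is 1 library. The B-like share of kept cells differed by -8.24 percentage points between combod18t and Combined and by 13.7 between ctxd18t and CTX. Among cells outside the T-like class, the interval of the combination difference covered both directions, as given above. The conventional CD4 T share of T-like cells differed by 21.8 points and by -4.15 points, in the same order. Without T cluster 0 it differed by -12.99 points in the combination pair, the same direction as the CTX pair with all its cells.

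In conventional CD4 T cells 3 genes past 2-fold in both pairs had opposite signs. The heat shock gene Hspa1b had a log2 ratio of -2.97 in the combination pair (50.9 CPM in Combined, 5.64 in combod18t) and 2.3 in the CTX pair (35.7 in CTX, 180 in ctxd18t). The immediate early gene Jun had -1.49 (70.0 and 24.3 CPM) and 1.22 (76.3 and 179). Maf, a transcription factor of helper subsets, had -1.39 (151 and 57.2 CPM) and 1.59 (76.6 and 233). Maf was at 0.23 in the combination pair when both libraries were given the same mix of clusters, the same direction as the CTX pair with its own mix.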

How the results depend on the processing

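No paired analysis was possible because each group is 1 library, and for the same reason no replicate could be left out. Depth limits the NK-like and monocyte-macrophage-like values of combod18t, which rest on 109 and 234 cells. Among cells outside the T-like class, the difference in share was -17.4 points for monocyte-macrophage-like, 0.24 for B-like, 19.7 for neutrophil-like, -0.28 for plasmacytoid dendritic-like and 2.34 for conventional dendritic-like cells. Without T cluster 0, chosen after seeing the data, the CD4, CD8 and regulatory T shares differed by -12.99, 7.51 and -8.75 points, 263 genes fell in T-like cells, and 284 rose and 279 fell in CD4 T cells.

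Counts of genes moved by over 1.5 times under other settings, given as risen and fallen. With no filter beyond 1 count in each library they were 1611 and 707 over all cells, 1026 and 1051 in T-like, 1232 and 2090 in CD4, 1016 and 881 in CD8, 1527 and 892 in regulatory T, 1569 and 309 in monocyte-macrophage-like, 1673 and 616 in NK-like, and 1085 and 284 in B-like cells. Under median-of-ratios scaling they were 297 and 706 over all cells, 142 and 470 in monocyte-macrophage-like and 163 and 559 in NK-like cells, and 48 fell in B-like cells. Relative to genes of like span, a setting chosen after seeing the data, they were 226 and 222 in T-like, 162 and 181 in CD8 and 242 and 163 in regulatory T cells and 177 and 90 in NK-like cells, 299 rose over all cells, 454 fell in CD4 T cells and 179 rose in monocyte-macrophage-like cells. At the same mix of clusters they were 270 and 130 over all cells, 84 and 42 in T-like (a mix that covers 90.2% of the T-like cells of combod18t), 166 and 175 in CD4, 112 and 52 in CD8 and 269 and 110 in regulatory T cells, and 111 fell in NK-like cells. With cells thinned to 1000 UMIs, 261 fell in monocyte-macrophage-like, 443 in NK-like and 90 in B-like cells. With CPM + 10, 110 fell in NK-like cells. The causes were not tested.

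Of 350 named gene-by-class values past 2-fold, 350 kept their direction under resolution 2, mean CPM per cell and leaving out the top cell. When thinned 349 kept it, and at the same mix 325. All 350 also kept it under CPM + 10, median-of-ratios scaling and genes of like span, but these steps could not turn such values. CPM + 10 keeps the order of 2 levels, and the other steps move ratios by at most 0.37 and 0.89. Past 2-fold were 260 for like span and 176 at the same mix. Without T cluster 11, chosen after seeing the data, 59 of 59 such values of T-like cells kept their direction. Without T cluster 16, 57 of 57 such values of regulatory T cells kept their direction and 53 were past 2-fold. These 57 do not include H2-Aa, given above, which turned without that cluster. The direction turned at the same mix for Mki67 (0.67), Top2a (0.22) and Ube2c (0.052) in T-like cells and Ube2c (0.059) in CD8 T cells. In CD4 T cells it turned for Bcl6 (0.13), Cd200 (0.048), Cd44 (0.15), Cxcr6 (0.15), Id2 (0.033), Igfbp4 (-0.15), Itgb1 (0.28), Maf (0.23), Nrp1 (0.51), Tnfrsf9 (0.18), Zeb2 (0.21) and the checkpoint median (0.15). In regulatory T cells without T cluster 16, a setting chosen after seeing the data, it turned for H2-Aa and the class II median (-0.90). At the same mix it turned in regulatory T cells for Ccnb2 (0.38, and 0.72 when thinned), Stmn1 (0.015), Top2a (0.18) and Ube2c (0.31). In B-like cells it turned for Birc5 (-0.81), Hmgb2 (-0.56), Mki67 (-0.42), Rrm2 (-0.58), Stmn1 (-1.03), Top2a (-0.57) and the cell cycle median (-0.58).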

Other observations

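Some cells of both libraries fell in no compared class. Cluster 22, led by Rora, St6galnac3, Scart2, Icos and Il23r among others, held 31 cells of Combined and 59 of combod18t, beside 35 of MRX, 3 of CTX and 7 of ctxd18t. It was kept apart because a marker of another class and no T marker was among its 10 leading genes. Epithelial-like cells, which a CD45+ sort should leave out, numbered 10 in Combined and 46 in combod18t. Cluster 21, at a low UMI count and led by C1qa, C1qb and C1qc, was left unnamed and held 17 and 43 cells.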
